A study of Rattus norvegicus with 16 samples.

Results

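The genes described here are the collagen chains, the laminin chains, the matrix glycoproteins nidogen, perlecan, fibronectin and SPARC, and the enzymes that modify collagen: the prolyl 4-hydroxylases (P4ha), the lysyl hydroxylases (Plod) and lysyl oxidase (Lox). The families were picked with earlier results of these data known; within them, members were taken by gene symbol alone, as probe sets annotated with 1 symbol of these families, taking the set with the highest mean where a gene had several. This gave 42 of the 14324 genes measured: 25 collagen chains, 7 laminin chains, 3 glycoproteins (Fn1, Nid2 and Sparc) and 7 enzymes. Col4a2, Col18a1, Nid1, Hspg2, Lama2, Lama4 and Lamb1 were not analysed here. Col6a4 had 3 probe sets, with means over all arrays of 4.11, 4.57 and 5.06 on the log2 scale. Col3a1 with Col5a2, and Col4a4 with Col4a3, are neighbouring genes.

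The study hybridised retinal RNA from newborn rats to 16 single-colour Affymetrix arrays, 2 for each of 8 groups. The groups combine 2 strains, Fischer (F344, resistant to oxygen-induced retinopathy) and Sprague Dawley (SD, susceptible), 2 exposures, cyclic hyperoxia and room air, and 2 ages, post-natal days 5 and 6. In cyclic hyperoxia the pups were kept from within 12 hours of birth in oxygen that alternated every 24 hours between 80% and 21%; the controls were age-matched rats of the same strain in room air. Each array carries pooled RNA, and it was not given whether the 3 rats and 2 litters that the design text names make up each pool or both, so p-values measure the spread between these pools.

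Collagen chains are hydroxylated on proline and lysine in the endoplasmic reticulum by P4ha and Plod enzymes, which need oxygen, iron and 2-oxoglutarate, and secreted collagen is cross-linked outside the cell by lysyl oxidase, which also uses oxygen. P4ha1, P4ha2, Plod2 and Lox are known targets of the hypoxia-inducible factors, transcription factors that are degraded when oxygen is plentiful. In the retina, type IV collagen and laminins form the inner limiting membrane and the sheath of vessels, and fibronectin laid down by astrocytes is part of the bed on which the first vessels grow.

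The results turn on 3 enzymes, P4ha1, P4ha2 and Plod2, and their promoters are shown because all 3 hold ACGTG, a form of the core letters bound by hypoxia-inducible factors. P4ha1 and P4ha2 are catalytic subunits of prolyl 4-hydroxylase, and Plod2 hydroxylates lysines of the collagen telopeptides. The stretches below run 5′ to 3′ on the plus strand of the RefSeq assembly GRCr8, from chr20:27844977-27845071 for P4ha1, chr10:38743731-38743887 for P4ha2 and chr8:101964110-101964219 for Plod2. Capitals mark ACGTG or, where the match is on the minus strand, its reverse complement CACGT.
P4ha1: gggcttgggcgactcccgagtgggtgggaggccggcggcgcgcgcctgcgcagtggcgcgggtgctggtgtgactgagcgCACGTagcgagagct
P4ha2: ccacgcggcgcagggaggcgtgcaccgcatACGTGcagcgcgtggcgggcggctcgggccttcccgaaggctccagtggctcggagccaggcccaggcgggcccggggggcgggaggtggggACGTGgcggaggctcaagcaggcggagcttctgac
Plod2: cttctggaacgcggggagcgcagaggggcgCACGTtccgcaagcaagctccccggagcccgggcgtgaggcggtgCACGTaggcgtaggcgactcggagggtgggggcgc

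RefSeq promoter windows, from 250 bases before to 50 after the transcription start, were at hand for 33 of the 42 genes. ACGTG was searched on both strands, and none of the 3 stretches shown holds CACGTG, in which matches on the 2 strands overlap. P4ha2 had matches 133 and 41 bases upstream of the start, Plod2 had matches 178 and 133 bases upstream, and P4ha1 had 1 match 11 bases after the start. The fourth gene with a match was Lamc3, a laminin gamma chain, and none of the 20 collagen windows held ACGTG. The related letters GCGTG were not searched, and they occur in the Col4a1 window among others. The share with a match was 12.1% of the 33 windows, against 19.3% of all 33469 windows in the table, so the letters were no more frequent in these genes than in all windows. A match in these windows is a description of the letters only.

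Values are log2 expression on the scale deposited by the authors, and probe sets of different genes are not on 1 scale, so levels are compared only within a gene. The medians of the 16 arrays lay between 5.45 and 5.52, and 24 of the 42 genes had a mean under 5.45, which leaves 18 above it. The genes under that level were 5 of the 10 fibrillar collagens, all 3 measured basement membrane collagens (Col4a1, Col4a3 and Col4a4), 9 of the 12 other collagens, 4 of the 7 laminins, Nid2, and P4ha3 and Lox among the enzymes. For a gene under it, a fold change is given as a lower limit or left out. Sparc had a mean of 9.17, P4ha1 and Plod2 of 9.21, Fn1 of 7.32, Col2a1 of 6.72, Lamc1 of 6.34 and Col4a1 of 5.30.

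**Figure D1:**
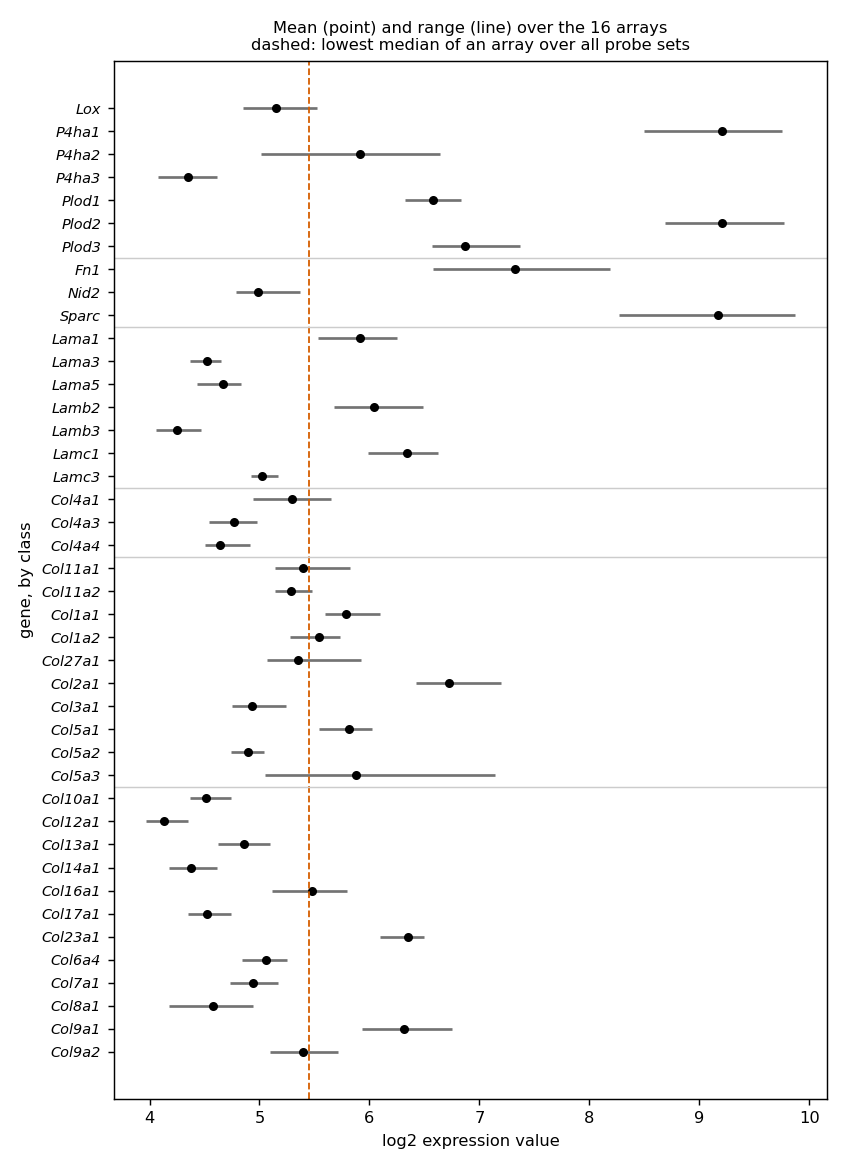
Levels of the 42 genes. Each point is the mean log2 value of a gene over 16 arrays, the line its lowest to highest array, and the dashed line the lowest array median, 5.45; 24 genes have a mean under the dashed line. Positions of different genes are not comparable as amounts of RNA.

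All 7 measured retinal markers lay above that level, with a summed log2 value of 12.83 to 13.20 on every array. The 2 F344 hyperoxia arrays of day 6 were the least alike pair (r = 0.987 across genes, 70 genes apart by over 2-fold, against 0 to 34 in the other pairs), and results that rest on 1 of them are given without it. Of 9 measured endothelial markers, 8 had a mean under 5.45. The number of arrays limits the precision. In whole retina, fewer cells of a type and less RNA per cell cannot be told apart.

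On day 5, P4ha1, Plod2 and P4ha2 were lower under cyclic hyperoxia than in room air in both strains, while no collagen or laminin chain passed the test. Averaged over the strains, these 3 enzymes fell, 3 of 42 genes, against 0.209% of all genes called in that comparison, and no member was called higher. Calls are at an adjusted p under 0.05 (limma, Benjamini-Hochberg over all 14324 genes), and errors of log2 changes are standard errors with n = 2 arrays per group. Within a strain the test called P4ha1 in F344 (1 of 42, against 0.126% of all genes) and no member in SD, against 0.0628% of all genes. In SD 8 members had an unadjusted limma p under 0.05, against 9.05% of all genes.

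P4ha1 read 8.65 and 8.50 in F344 hyperoxia, against 9.69 and 9.66 in F344 room air. It read 8.55 and 8.56 in SD hyperoxia, against 9.59 and 9.33 in SD room air. All 4 hyperoxia arrays lay below all 4 room air arrays, and the pairs of each group lay close together. The mean effect was −1.0 ± 0.13, a 2.01-fold fall (adjusted p = 0.00142), and it was called whichever array was left out. The effect was −1.10 ± 0.18 in F344 (adjusted p = 0.0217) and −0.91 ± 0.18 in SD (adjusted p = 0.172), and the difference between the strains, 0.20 ± 0.26, was not called (adjusted p = 0.939). The F344 call was lost without any 1 of the day 5 arrays of F344, the day 5 hyperoxia arrays of SD or the day 6 hyperoxia arrays of SD, with an adjusted p of up to 0.458. The SD effect was called without either day 6 hyperoxia array of F344 (adjusted p = 0.0442 each).

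Plod2 followed the same order on day 5. It read 8.69 and 8.70 against 9.35 and 9.32 in F344, and 8.91 and 8.99 against 9.71 and 9.40 in SD, hyperoxia first. The hyperoxia arrays again lay below every room air array. The mean effect was −0.62 ± 0.10, a 1.54-fold fall (adjusted p = 0.0121). That call was lost without any 1 of the 4 hyperoxia arrays of day 5 or without SD room air replicate 1 of day 5 (adjusted p up to 0.0954).

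P4ha2, the second catalytic subunit of the prolyl 4-hydroxylase family, read 5.51 and 5.01 against 5.85 and 6.16 in F344. In SD it read 5.56 and 5.46 against 5.97 and 5.96. The groups did not overlap, with the lowest value in F344 hyperoxia replicate 2. The mean effect was −0.60 ± 0.10, a fall of at least 1.52-fold because F344 hyperoxia lay under the array median (adjusted p = 0.0199). The call was lost without replicate 2 of either F344 group or without any 1 of the 4 SD arrays of day 5 (adjusted p up to 0.126). In F344 alone the effect was −0.75 ± 0.15 (adjusted p = 0.0839), and it was not called in 15 of the 16 fits that left out 1 array. Without F344 hyperoxia replicate 2 it was −0.49 (adjusted p = 0.988), and without replicate 1 it was −1.0 and called (adjusted p = 0.0334).

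P4ha1, P4ha2 and Plod2 were also the only members whose 4 hyperoxia arrays all lay below their 4 room air arrays on day 5, which is 7.14% of the 42 genes against 3.26% of all genes. No member lay wholly above, against 2.3% of all genes. None of the other 4 enzymes was called: P4ha3 had an effect of −0.12 ± 0.10 over both strains (adjusted p = 0.661), Plod1 of 0.02 ± 0.10 (adjusted p = 0.964), Plod3 of 0.13 ± 0.09 (adjusted p = 0.626) and Lox of −0.05 ± 0.07 (adjusted p = 0.834). P4ha3 and Lox had means under the array median in every group of day 5.

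**Figure D2:**
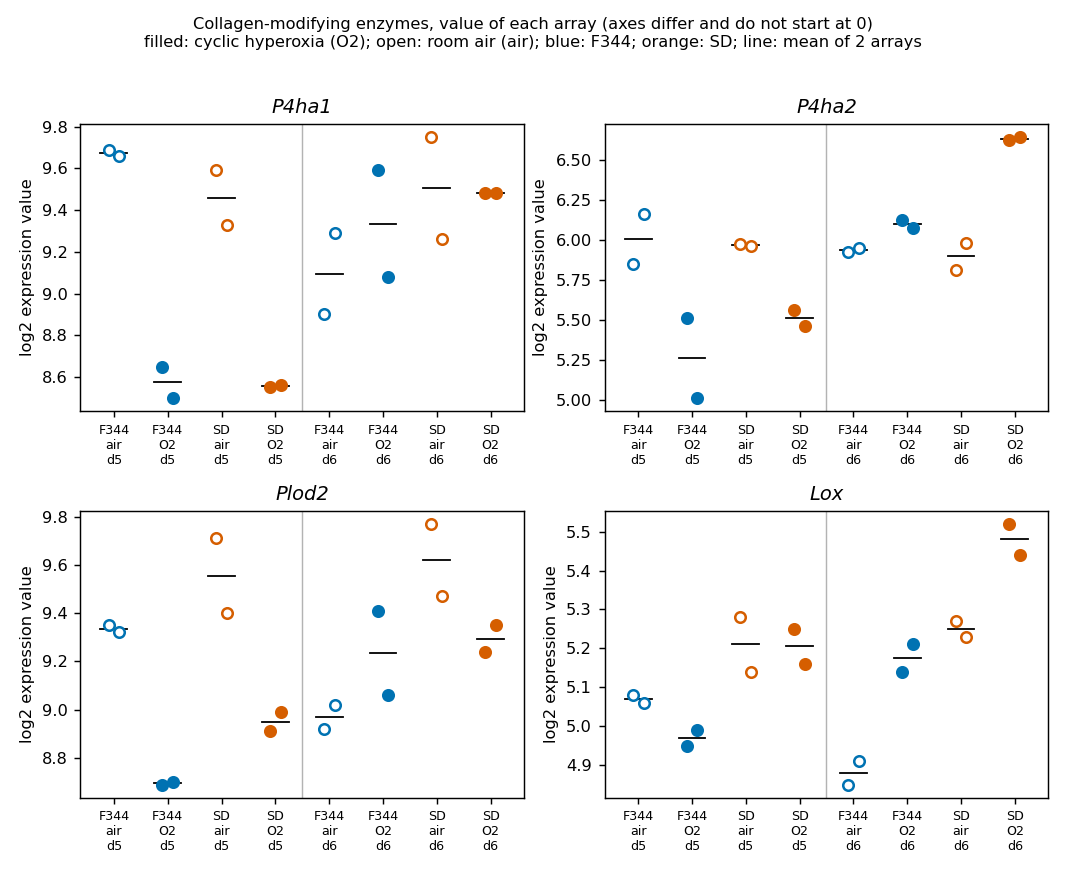
P4ha1, P4ha2, Plod2 and Lox on every array. Points are log2 values of single arrays by strain, day and exposure, and bars are group means; on day 5 the hyperoxia arrays of P4ha1 (8.50 to 8.65) lie below those of room air (9.33 to 9.69), and on day 6 they overlap.

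Of the 25 collagen chains, none was called on day 5 in any oxygen comparison, and 1 had an unadjusted limma p under 0.05 in the comparison over both strains, against 11.2% of all genes. Their median effect was 0.01, with a range of −0.18 to 0.21, and the median over all genes was also 0.01. The lowest was Col4a1, a chain of the main vascular type IV collagen, at −0.18 ± 0.12 (adjusted p = 0.598). The highest were Col16a1 and Col27a1, both at 0.21, and Col17a1 at 0.14. Col1a1 and Col3a1, chains of interstitial fibrils, had effects of −0.06 ± 0.08 and −0.11 ± 0.08, and Col1a2 of 0.02 ± 0.09. In F344 the highest values were those of Col2a1 (0.20), Col7a1 (0.18) and Col5a1 (0.17), and in SD those of Col27a1 (0.36), Col16a1 (0.32) and Col13a1 (0.29), with none called. The lowest were Col9a1 in F344, at −0.41 ± 0.20 (adjusted p = 0.615), against 0.22 ± 0.20 in SD, and Col8a1 in SD, at −0.30 ± 0.15 (adjusted p = 0.587), against −0.01 ± 0.15 in F344. The difference between the strains was not called for Col9a1 (0.63 ± 0.29, adjusted p = 0.807). The Col2a1 value was 0.11 without F344 room air replicate 1, and the Col17a1 value over both strains was 0.08 without F344 hyperoxia replicate 1 and 0.09 without SD hyperoxia replicate 1.

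The 7 laminin chains all had negative effects on day 5, from −0.29 to −0.01 with a median of −0.05, and none was called; 1 had an unadjusted limma p under 0.05. Lamc1, the gamma chain found in most laminins, had the lowest, at −0.29 ± 0.09 (adjusted p = 0.285). Its arrays read 6.42 and 6.17 against 6.53 and 6.56 in F344, and 5.99 and 6.11 against 6.41 and 6.34 in SD. Both hyperoxia arrays were below both room air arrays in each strain, as for 13 of the 42 members in F344 and 9 in SD. The groups overlapped when the strains were put together. Lama1, Lama5 and Lamb2 had effects of −0.05 ± 0.11, −0.01 ± 0.08 and −0.01 ± 0.13.

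Among the glycoproteins, Fn1, encoding fibronectin, had a day 5 effect of −0.44 ± 0.10 over both strains (adjusted p = 0.127). It read 7.36 and 7.44 against 7.56 and 7.84 in F344, and 6.61 and 6.58 against 7.18 and 7.18 in SD. Both hyperoxia arrays were below both room air arrays within each strain, as for 13 of the 42 members in F344 and 9 in SD. The fitted effect in SD, −0.59 ± 0.14, had a limma adjusted p of 0.316. Sparc, a collagen-binding matrix protein, had an effect of −0.12 ± 0.13, and Nid2, which links laminin to type IV collagen, of −0.14 ± 0.11.

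Marker levels of vascular cells stood as follows on day 5. Of the 9 measured endothelial markers all had negative effects over both strains and 3 were called lower (Adgrl4 −0.75, Tek −0.79 and Flt1 −0.45), against 0.209% of all genes, with a median of −0.39. Their summed log2 level was 7.98 to 8.03 in F344 hyperoxia against 8.25 to 8.50 in room air, and 7.99 to 8.0 against 8.41 to 8.52 in SD. The 9 measured pericyte and smooth muscle markers summed to 8.03 to 8.07 against 8.37 to 9.12 in F344 and to 7.97 to 8.23 against 8.56 to 8.62 in SD, with none called. Within that list Rgs5 had the widest range over the 16 arrays, 5.77 to 8.30 with a mean of 6.97, while the other 8 had means of 4.13 to 5.33, so that the sum largely follows 1 gene. Their part in the values of the enzymes, Lamc1 and Fn1 was not tested. For reference, Vegfa, a hypoxia-regulated growth factor, had an effect of −0.92 (adjusted p = 0.00013) and Egln3, a hypoxia-induced prolyl hydroxylase, of −1.28 (adjusted p = 2.97e-05) over both strains.

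On day 6 P4ha2 was higher under cyclic hyperoxia, Lox was slightly higher, and P4ha1 and Plod2 were not called in either direction. Over both strains P4ha2 and Lox were called higher, 2 of 42, against 4.01% of all genes called higher and 6.74% called in either direction. In SD 1 member was called, P4ha2, against 2.23% of all genes called higher and 2.79% in either direction. In F344 no member was called and 6 had an unadjusted limma p under 0.05, against 1.19% and 17.6% of all genes. Calls in either direction were thus not more frequent among the members than among all genes on this day, and calls of a rise were near the share over all genes.

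P4ha2 read 6.62 and 6.64 in SD hyperoxia against 5.81 and 5.98 in SD room air. In F344 it read 6.12 and 6.07 against 5.92 and 5.95. The 4 hyperoxia arrays (6.07 to 6.64) lay above the 4 room air arrays (5.81 to 5.98), an order that 4.6% of all genes showed. The effect was 0.74 ± 0.15 in SD, a 1.67-fold rise (adjusted p = 0.0187), and 0.45 ± 0.10 over both strains, a 1.37-fold rise (adjusted p = 0.0206). In F344 it was 0.16, and the difference between the strains, 0.58 ± 0.21, was not called (adjusted p = 0.273). The SD call was lost without either SD hyperoxia array or without SD room air replicate 1 of day 6 (adjusted p up to 0.226). The call over both strains was lost without those arrays or without either F344 room air array of day 6 (adjusted p up to 0.0983).

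Lox read 5.14 and 5.21 against 4.85 and 4.91 in F344, and 5.52 and 5.44 against 5.27 and 5.23 in SD. Both hyperoxia arrays were above both room air arrays within each strain, as for 8 of the 42 members in F344 and 9 in SD. The hyperoxia and room air arrays overlapped when the strains were put together. The effect was 0.29 ± 0.10 in F344 (adjusted p = 0.148) and 0.23 ± 0.10 in SD (adjusted p = 0.243). Over both strains it was 0.26 ± 0.07 (adjusted p = 0.043), with no fold given because all groups but SD hyperoxia lay under the array median. The call was kept only without either F344 room air array of day 5 or F344 hyperoxia replicate 1 of day 6, and was lost without any of the other 13 arrays (adjusted p up to 0.183).

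P4ha1 read 9.59 and 9.08 against 8.90 and 9.29 in F344, and 9.48 and 9.48 against 9.75 and 9.26 in SD on day 6. The groups overlapped in both strains, with an effect of 0.11 ± 0.13 over both (adjusted p = 0.664). Plod2 read 9.41 and 9.06 against 8.92 and 9.02 in F344 and 9.24 and 9.35 against 9.77 and 9.47 in SD. Its arrays were higher under hyperoxia in F344, as for 8 of the 42 members, and lower in SD, as for 12 of them. The limma effects of Plod2 were 0.27 (adjusted p = 0.34) and −0.32 ± 0.14 (adjusted p = 0.231). The F344 value was 0.10 without hyperoxia replicate 1 and 0.44 without replicate 2, and the SD value was −0.17 without room air replicate 1. The difference between those effects, −0.59 ± 0.20, was not called (adjusted p = 0.243).

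Plod3, which hydroxylates and glycosylates lysine, had opposite signs in the strains in the other order, −0.33 ± 0.13 in F344 (adjusted p = 0.202) and 0.26 ± 0.13 in SD (adjusted p = 0.286). The difference between them, 0.59 ± 0.18, was not called (adjusted p = 0.204). Across the 42 genes no strain difference of the oxygen effect was called by limma on either day, against 0% of all genes on day 5 and 0.0559% on day 6. At an unadjusted p under 0.05 there were 2 members on day 5 and 5 on day 6, against 6.14% and 11.5% of all genes.

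The day itself was tested as the difference of the oxygen effect between day 6 and day 5. Over both strains the effect on P4ha1 was higher on day 6 by 1.11 ± 0.18 (adjusted p = 0.0137) and that on P4ha2 by 1.05 ± 0.15 (adjusted p = 0.00269), 2 of 42 members against 0.182% of all genes. The P4ha2 call held whichever array was left out. The P4ha1 call was lost without either SD hyperoxia array of day 5 or day 6, SD room air replicate 1 of day 5 or F344 room air replicate 1 of day 6 (adjusted p up to 0.0642). For Plod2 the difference was 0.59 ± 0.14 (adjusted p = 0.165).

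In F344 the test called P4ha1 (1.34 ± 0.26, adjusted p = 0.0278) and Plod2 (0.90 ± 0.20, adjusted p = 0.0451), 2 of 42 against 0.272% of all genes called higher and 1.02% in either direction. P4ha2 stood at 0.91 ± 0.21 (adjusted p = 0.0501). In SD it called P4ha2 (1.20 ± 0.21, adjusted p = 0.0301), 1 of 42 against 0.112%. The room air arrays moved too: P4ha1 in F344 room air read 9.69 and 9.66 on day 5 and 8.90 and 9.29 on day 6, so the F344 control was itself lower on day 6. For Plod2 the F344 room air mean was 9.33 on day 5 and 8.97 on day 6. Over both strains the room air day difference of P4ha1 was −0.27 ± 0.13 (adjusted p = 0.343) and that of P4ha2 −0.07 ± 0.10. For reference, Vegfa had a day 6 oxygen effect of 0.17 (adjusted p = 0.284) and a day difference of 1.09 (adjusted p = 0.000843), and Egln3 of 0.56 (adjusted p = 0.00899) and 1.83.

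With 1 array left out, these within-strain day differences stayed at 1.08 to 1.6 for P4ha1 and 0.73 to 1.08 for Plod2 in F344. P4ha2 in SD stayed at 1.11 to 1.29. Their calls, however, depended on single arrays, some of them outside the comparison. That of P4ha1 in F344 was lost without either F344 hyperoxia array of day 5, F344 room air replicate 1 of day 5, either SD hyperoxia array of day 5 or either F344 room air array of day 6 (adjusted p up to 0.153). That of Plod2 was kept only without F344 hyperoxia replicate 2 of day 6 or any 1 of the SD room air arrays. That of P4ha2 in SD was lost without any of the 8 SD arrays or either F344 room air array of day 6.

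**Figure D3:**
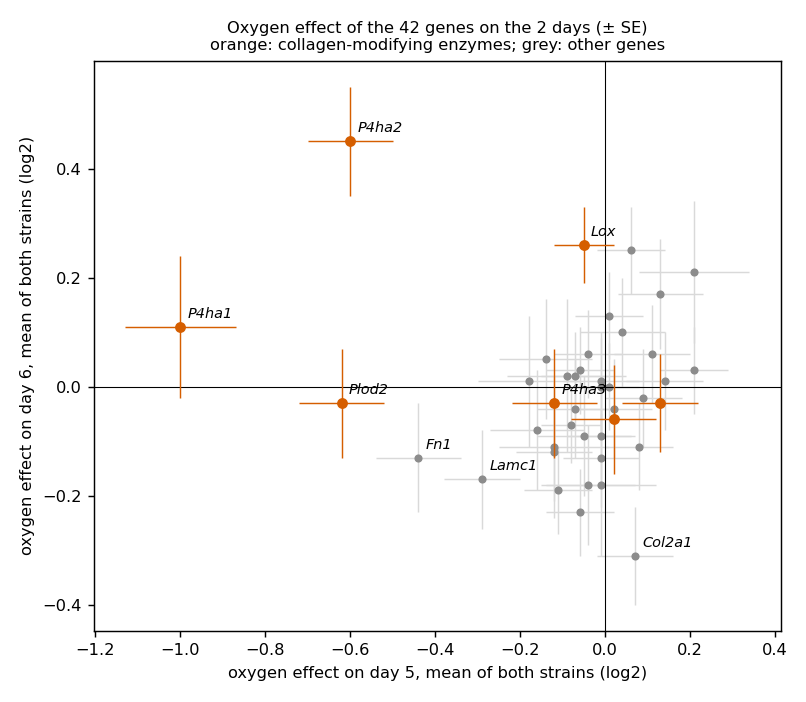
Oxygen effect over both strains on day 5 (x axis) against day 6 (y axis), both as log2 change with standard errors, for the 42 genes, with enzymes in orange. P4ha1 lies at −1.0 and 0.11, P4ha2 at −0.60 and 0.45, and Plod2 at −0.62 and −0.03, and the collagen and laminin chains lie near the origin.

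No collagen or laminin chain was called in an oxygen comparison of day 6 either. The 25 collagen chains had a median effect over both strains of 0.00 and a range of −0.31 to 0.25, with 4 at an unadjusted limma p under 0.05, against 23.9% of all genes. Col2a1, the fibrillar collagen of vitreous and cartilage, had the lowest at −0.31 ± 0.09 (adjusted p = 0.0618). It read 6.61 and 6.72 against 6.81 and 7.20 in F344, and 6.46 and 6.64 against 6.87 and 6.79 in SD. Every hyperoxia array lay below every room air array, an order that 3.18% of all genes showed on that day. It was called without F344 room air replicate 1 of day 6, at −0.40 (adjusted p = 0.0474), and was not called in the other 15 fits that left out 1 array, where it reached −0.21 (adjusted p up to 0.259).

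Col1a1 and Col3a1 stood at −0.23 ± 0.08 (adjusted p = 0.0908) and −0.19 ± 0.08 (adjusted p = 0.181), Col1a2 at −0.04 ± 0.09 and Col4a1 at 0.01 ± 0.12. Of the 10 fibrillar collagens 8 had a negative effect, with a median of −0.11 against −0.01 over all genes. In F344 the lowest values were those of Col1a1 (−0.36), Col23a1 (−0.34) and Col2a1 (−0.34), and in SD those of Col11a1 (−0.33) and Col2a1 (−0.27), while Col9a2 stood at 0.28 in SD. The Col2a1 value in F344 was −0.53 without room air replicate 1 and −0.14 without replicate 2, and the Col9a2 value in SD was 0.17 without room air replicate 1. Col9a2, a chain of type IX collagen, had the highest effect over both strains, 0.25 ± 0.08 (adjusted p = 0.0795), and was called without F344 hyperoxia replicate 1 of day 6, at 0.30 (adjusted p = 0.0294).

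Col27a1 had the highest value in F344 on day 6, 0.31, from arrays at 5.11 and 5.92 against 5.19 and 5.21. The hyperoxia arrays stood on both sides of the controls, the widest split of any member within a group. Without replicate 2 of that group the value was −0.09 (adjusted p = 0.808), and without replicate 1 it was 0.72 and called (adjusted p = 0.00522).

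The laminin chains had a median of −0.09 on day 6 and a range of −0.18 to 0.06, with 0 called and 0 at an unadjusted limma p under 0.05. Lamc1 stood at −0.17 ± 0.09 (adjusted p = 0.292), Lamb2 at −0.18 ± 0.13, Lama1 at −0.09 ± 0.11 and Lama5 at −0.09 ± 0.08. Fn1 stood at −0.13 ± 0.10, Sparc at −0.11 ± 0.13 and Nid2 at 0.05 ± 0.11. Of the endothelial markers 4 of 9 were called lower (Adgrl4, Emcn, Tek and Tie1), against 2.73% of all genes, with a summed level of 8.18 to 8.21 in SD hyperoxia against 8.58 to 8.60 in room air and of 8.23 to 8.55 against 8.50 to 8.52 in F344. Their part in these values was not tested.

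**Figure D4:**
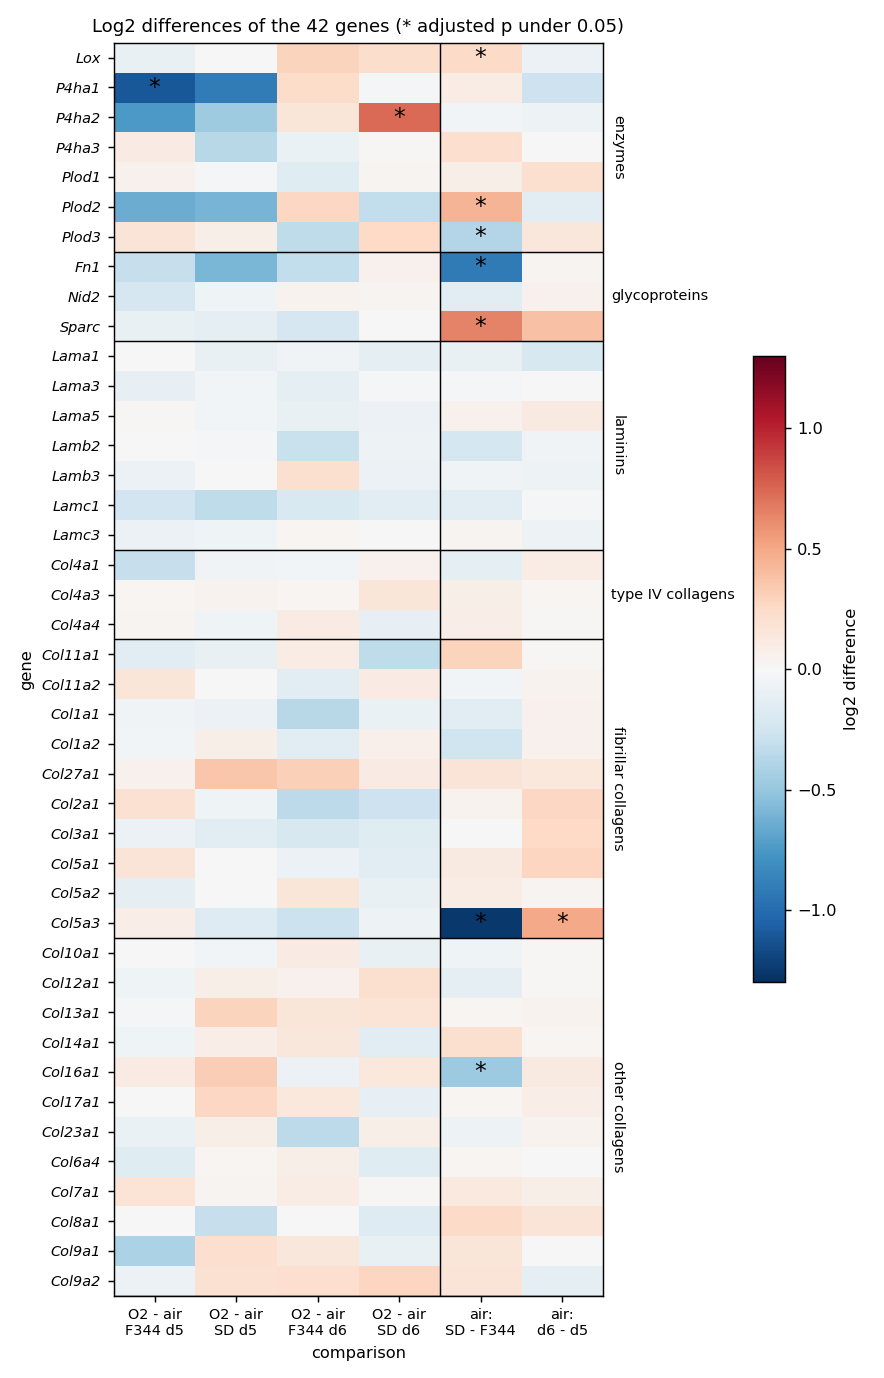
Log2 differences of the 42 genes. Columns are the oxygen effects by strain and day, then SD minus F344 and day 6 minus day 5 in room air. Colour is the log2 difference, rows are ordered by family, and asterisks mark calls. In the oxygen columns only enzymes carry asterisks, while in the room air columns Fn1, Sparc, Col5a3 and Col16a1 also do.

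Between the strains in room air, 7 of 42 members were called, against 9.35% of all genes: Fn1, Col5a3, Col16a1 and Plod3 were lower in SD than in F344, and Sparc, Plod2 and Lox were higher. The percentage called lower over all genes was 5.33% and higher 4.02%. The room air arrays also serve as the controls of the oxygen comparisons above.

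Fn1 read 7.56, 7.84, 8.09 and 8.19 in the room air arrays of F344. In SD it read 7.18, 7.18, 6.62 and 7.02. Every SD array was below every F344 array, and this also held for the hyperoxia arrays (6.58 to 7.18 over all SD arrays, 7.36 to 8.19 over all F344 arrays). The room air difference was −0.92 ± 0.10, a 1.89-fold lower value in SD (adjusted p = 4.77e-05).

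Col5a3, a minor chain of the type V collagen that nucleates fibrils, read 6.04, 6.29, 6.78 and 7.14 in F344 and 5.09, 5.36, 5.25 and 5.57 in SD. The hyperoxia arrays kept the order, so that all 8 SD arrays (5.05 to 5.57) lay below all 8 F344 arrays (6.04 to 7.14). Fn1 and Col5a3 were the members with such an order, which 0.67% of all genes showed, and no member had the opposite one (1.02% of all genes). The difference was −1.25 ± 0.11, at least 2.37-fold (adjusted p = 4.32e-06).

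Col16a1, a fibril-associated collagen, read 5.55, 5.56, 5.69 and 5.80 in F344 room air and 5.11, 5.21, 5.13 and 5.28 in SD. The strains did not overlap, as for 4.91% of all genes in this direction, and the difference was −0.47 ± 0.08, at least 1.38-fold (adjusted p = 0.00168). Plod3 was lower by 0.38 ± 0.09 on the log2 scale, a 1.3-fold difference (adjusted p = 0.0173), with values of 6.73 to 7.37 in F344 and 6.57 to 6.74 in SD that overlapped. Its call was lost without F344 room air replicate 2 of day 5 or day 6, SD room air replicate 1 of day 5 or SD room air replicate 2 of day 6 (adjusted p up to 0.0989).

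Sparc read 8.55, 8.73, 9.22 and 9.15 in F344 room air and 9.20, 9.68, 9.44 and 9.87 in SD. SD was higher on each day, by 0.64 ± 0.13 or 1.56-fold (adjusted p = 0.00742), with an overlap across days. Plod2 was higher in SD by 0.44 ± 0.10, or 1.35-fold (adjusted p = 0.0133), and its strains did not overlap (8.92 to 9.35 against 9.40 to 9.77), as for 5.17% of all genes in this direction. The Plod2 call was lost without SD room air replicate 1 of day 5 or day 6 or F344 room air replicate 1 of day 6 (adjusted p up to 0.0591). Lox was higher by 0.25 ± 0.07 (adjusted p = 0.0399), a call that was lost in 14 of the 16 fits that left out 1 array and kept only without either F344 hyperoxia array of day 6. Without SD room air replicate 1 of day 5, 4 members were called. Fn1, Col5a3, Col16a1 and Sparc were called whichever array was left out.

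No laminin chain was called between the strains, with a median of −0.05. P4ha1 differed by 0.10 ± 0.13, P4ha2 by −0.04 ± 0.10 and Plod1 by 0.08 ± 0.10. Fibroblast, sclera and meninges markers summed to 8.06 to 8.19 in F344 room air and 7.87 to 7.91 in SD room air on day 5, and to 7.97 to 8.11 and 7.94 to 8.23 on day 6, with 1 of 10 called lower in SD (Igf2, −0.35). Of these markers 8 of 10 had a mean under the array median, with Dcn at 3.95 and Lum at 3.96. Of 7 measured markers of pigment epithelium, choroid and ciliary body, 5 had positive and 2 negative values, with a median of 0.11 and a range of −0.57 to 0.52. Of these 1 was called, Ttr, lower in SD (adjusted p = 0.0438), and 3 had an unadjusted limma p under 0.05. They summed to 9.13 to 9.49 in F344 and 9.10 to 9.32 in SD on day 5 and to 9.94 to 9.95 and 9.13 to 9.70 on day 6. This sum largely follows 1 gene, since Ttr had a mean of 8.98 over all arrays and Tyrp1, the next highest, of 6.53. The part of the fibroblast and pigment epithelium markers in the strain differences was not tested.

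**Figure D5:**
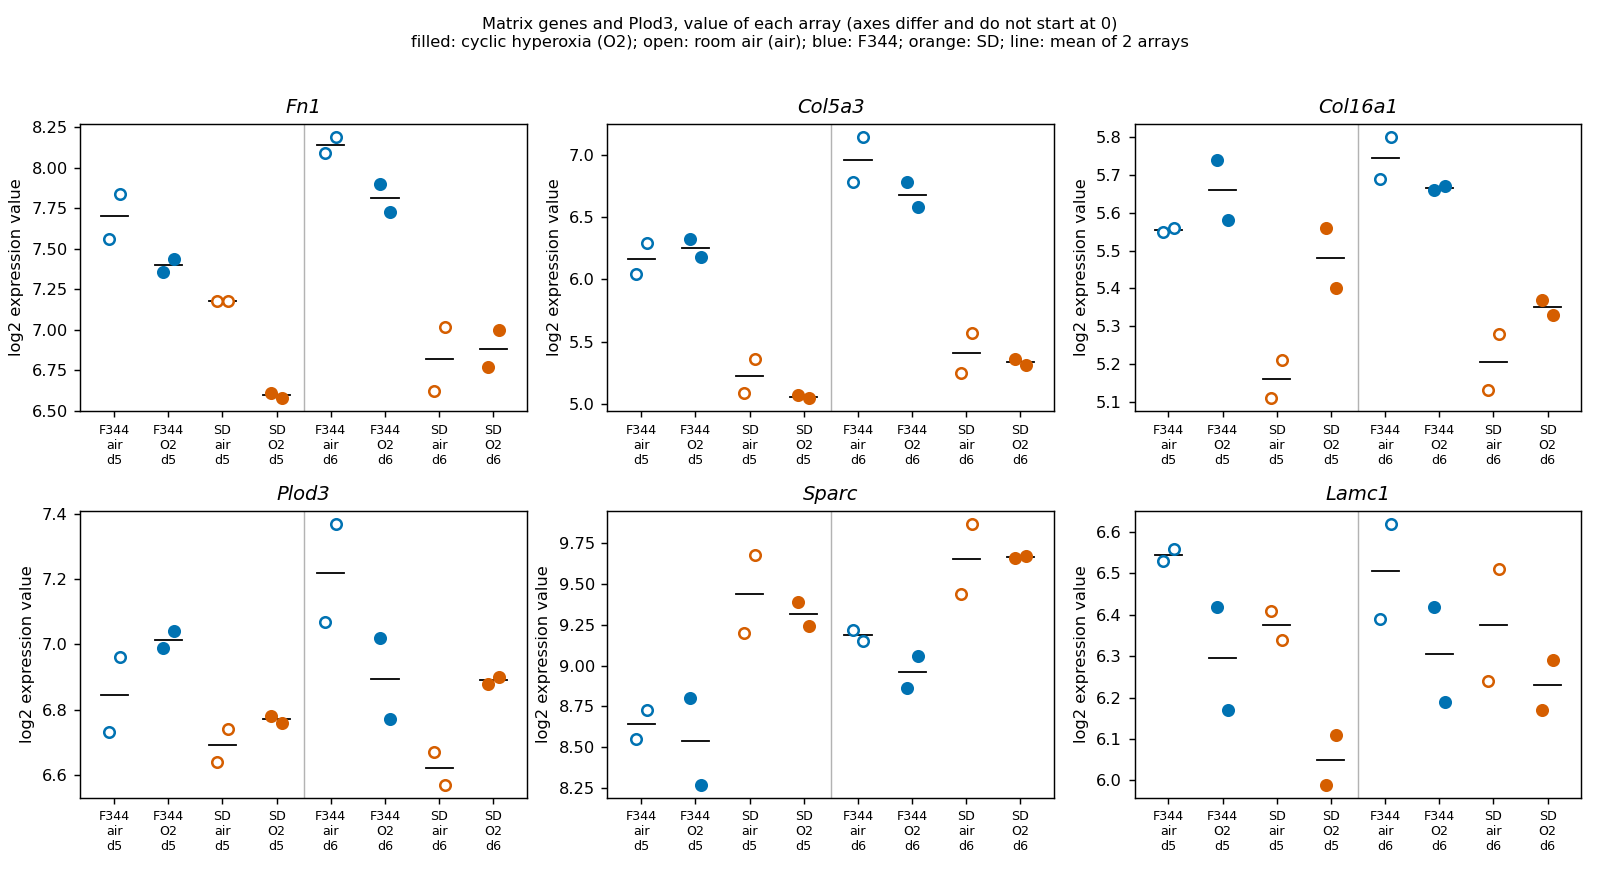
Fn1, Col5a3, Col16a1, Plod3, Sparc and Lamc1 on every array. Points are log2 values of single arrays by strain, day and exposure, and bars are group means; Fn1 and Col5a3 separate all 8 F344 arrays from all 8 SD arrays.

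Between day 5 and day 6 in room air, 1 of 42 members was called, against 1.29% of all genes called higher and 3.0% in either direction. Col5a3 rose by 0.49 ± 0.11 on the log2 scale over both strains (adjusted p = 0.0229), with no fold given because both SD groups lay under the array median. It went from 6.04 and 6.29 to 6.78 and 7.14 in F344. In SD it read 5.09 and 5.36 on day 5 and 5.25 and 5.57 on day 6, overlapping and near the array median. The call was lost without F344 or SD room air replicate 1 of day 5 or F344 or SD room air replicate 2 of day 6 (adjusted p up to 0.141). All 10 fibrillar collagens had positive values, from 0.02 to 0.49 with a median of 0.10 against 0.02 over all genes, among them Col5a1 at 0.28 ± 0.08 (adjusted p = 0.0653) and Col3a1 at 0.26 ± 0.08 (adjusted p = 0.12).

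Across the 42 genes the oxygen effects of the 2 strains, which come from different arrays, had a Pearson correlation of 0.66 on day 5 and 0.11 on day 6. Without P4ha1, P4ha2 and Plod2 the day 5 value was 0.20 over 39 genes. Of the 42 genes 25 had the same sign in both strains on day 5 and 20 on day 6. These are descriptions across genes, which are not independent replicates and share arrays within a strain.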

How the data were processed

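The deposited table holds log2 values of 27342 probe sets, made by the authors with Partek 6.4 and RMA per the submitters' processing notes. RMA corrects background, normalizes quantiles across arrays and summarises probes, so a shift shared by most transcripts is not seen in these values. Symbols came from the platform annotation, updated by Entrez identifier to RefSeq (GRCr8): 15097 had 1 symbol (15067 matched, 30 kept as annotated), 323 had several and 11922 were not listed. A probe set listed under both Aif1l and Lamc3 was not used.

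The 14324 genes entered a limma fit (version 3.58.1, R 4.3.3) with 1 mean per group over all 16 arrays (8 residual and 7.41 prior degrees of freedom) and Benjamini-Hochberg adjustment within each of 13 contrasts. The oxygen effect is cyclic hyperoxia minus room air; the mean over both strains weights them equally. On data simulated for the day 5 oxygen effect in SD over 14324 genes, 86 of 100 genes changed by 1 on the log2 scale and 99 of 100 changed by 2 were called, with 10 false calls. The simulation changed more genes than the real comparison called (0.0628%), and more changed genes loosen the adjustment. Its shares may thus be too high for these data. A fold against a group with a mean under 5.45, the lowest array median, is the measured ratio written as a lower limit, since low values on arrays hold background that narrows ratios.

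The members and lists were chosen with earlier results of these data known. Members were named where called, where among the 3 highest or lowest of an oxygen effect, or by a list of main matrix genes. Col2a1 and Col9a2 were also described for values near the threshold, Col5a1 and Col3a1 for their day difference, and Col9a1 and Col8a1 for the lowest collagen values of day 5, after their values were seen. The labels state no pairing, so replicate numbers were not used as pairs. Deviations of replicate 1 correlated between groups at −0.29 to 0.52, with a median of −0.02 over 28 pairs, which cannot exclude a shared batch. Alternatives were a replicate block, trended and robust variance, median centring, a filter on low values, the mean over a gene's probe sets, all probe sets tested alone, and leaving out each array.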

Additional observations from a re-analysis of the deposited data

Results flagged for a closer look

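The oxygen effect differed between the days for 3 enzymes by the test of the difference itself, which is what singles these results out. Over both strains the effect was higher on day 6 than on day 5 by 1.11 on the log2 scale for P4ha1 and by 1.05 for P4ha2. In F344 the difference was 1.34 for P4ha1 and 0.90 for Plod2, and in SD it was 1.20 for P4ha2. Plod2 was called in F344 only, not over both strains. The F344 room air controls also moved, from a mean of 9.68 on day 5 to 9.10 on day 6 for P4ha1 and from 9.33 to 8.97 for Plod2. Of these calls, only that of P4ha2 over both strains held whichever array was left out. Array values and adjusted p-values stand beside each of these results above. The cause of these differences was not tested, and age and phase of the oxygen cycle cannot be told apart.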

How the results depend on the processing

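The count of called members kept the same or a similar size under most alternatives, but a main count of 0 could only stay or rise. With single arrays left out, counts above 0 fell to 0 in several comparisons. With the replicate number as a block, it went from 2 to 1 for the day difference of the oxygen effect in F344 (Plod2 lost) and from 1 to 0 for that in SD (P4ha2 lost); Lox was lost and Col2a1 called in the day 6 effect over both strains. With trended and robust variance, median centring or low values left out, that day 6 count went from 2 to 1, and under the first 2 of these the day difference in F344 went from 2 to 1. With low values left out the day 6 count fell because Lox, with a mean of 5.15, was no longer tested. With all 27342 probe sets tested, the day 5 effect in F344 went from 1 to 0, and the day difference went from 2 to 0 in F344 and from 1 to 0 in SD; more tests enter the adjustment there, and the cause of the other changes was not tested. Leaving out each array gave 0 to 1 calls for the day 5 effect in F344, 0 to 1 in SD and 1 to 3 over both strains, and on day 6 0 to 2, 0 to 1 and 0 to 4. The strain differences of the oxygen effect gave 0 to 0 on both days, the day differences 0 to 3 in F344, 0 to 1 in SD and 1 to 3 over both strains, the room air strain difference 4 to 8 and the room air day difference 0 to 2. The 1 value that reversed was Col27a1 in F344 on day 6, at −0.09 without hyperoxia replicate 2 and 0.72 without replicate 1. Most collagen and laminin chains lie under the array median, which limits what could be detected in them.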

Other observations

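Genes that act on collagen beside the hydroxylases were listed separately. Of 26 listed genes of collagen folding and processing 23 were measured, and limma called none in an oxygen comparison of day 5, with 4 of 23 at an unadjusted p under 0.05 over both strains, against 11.2% of all genes. On day 6 over both strains 3 of 23 were called, against 6.74% of all genes. Fkbp14, a prolyl isomerase of the endoplasmic reticulum, rose by 0.37 (adjusted p = 0.0216) and Ppib, cyclophilin B, by 0.29 (adjusted p = 0.0439), while Adamts3, a procollagen N-proteinase, fell by 0.35 on the log2 scale (adjusted p = 0.0478). In SD alone 1 of 23 was called higher on day 6, against 2.23% of all genes. The day difference of the oxygen effect in F344 also had 1 called higher, against 0.272%. Loxl1, an oxidase that cross-links elastin, was lower in SD than in F344 in room air (−1.21, adjusted p = 3.43e-05) and rose from day 5 to day 6 in room air (0.70, adjusted p = 0.00761). In that room air day difference 2 of 23 were called higher, against 1.29% of all genes. Between the strains in room air 4 of 23 were called, against 9.35% of all genes; beside Loxl1 these were Adamts3 and Fkbp14, higher in SD by 0.66 and 0.33, and P3h3, lower (−0.32).

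Of 21 listed basement membrane partners and receptors 18 were measured. Agrn, the heparan sulfate proteoglycan agrin, fell by 0.33 on the log2 scale on day 6 over both strains (adjusted p = 0.0247), and no other was called in an oxygen effect of either day, so that 1 of 18 stands against 6.74% of all genes on day 6. In room air Smoc1, Fbln2 and Agrn were lower in SD (−0.51, −0.47 and −0.27) and Itga1, an integrin collagen receptor, was higher (0.45), 4 of 18 against 9.35% of all genes. Of 18 listed genes of matrix turnover 17 were measured, and none was called in an oxygen effect by limma. On each day 3 of 17 had an unadjusted limma p under 0.05 over both strains, against 11.2% of all genes on day 5 and 23.9% on day 6. Between the strains in room air, Plat was higher in SD (0.46) and Mmp14 and Mmp11 were lower (−0.39 and −0.30), 3 of 17 against 9.35% of all genes.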
